A study of Mus musculus with 36 samples.

Results

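The arrays described here follow the first day of doxycycline in secondary mouse embryonic fibroblasts (MEFs) that carry the transgenes labelled KOS-ZERT2. They are 4 of the 36 arrays of the series: 2 of cells grown for 1 day with doxycycline at 1.5 µg/ml and without tamoxifen (Dox+), and 2 of cells grown for the same day with neither drug (Dox-). Both groups were chosen by their labels. All 4 cultures are second generation MEFs of a C57Bl/6 x 129 background, labelled as 1 clone, and were grown on gelatin in ES medium with LIF, so the untreated cells carry the same transgenes. The end states used for comparison are embryonic stem (ES) cells of the line v6.5, a C57Bl/6 x 129 hybrid, 2 arrays, and untreated wild MEF3 cells, 2 arrays. MEF3 cells are labelled an F1 hybrid from V6.5, so both end states are tied to that line. They were grown in MEF medium, so medium and labelled origin also separate them from the secondary MEFs. Later sections also use secondary MEFs of day 1 with tamoxifen, at 200 nM where the protocol names it. Secondary MEFs of days 3 and 6 without tamoxifen are used too, as are iPS cells labelled KOS-ZERT2 and untreated MEF2 cells labelled ZERT2. No group used here had doxycycline without the KOS transgenes, so the drug and the factors it switches on cannot be told apart.

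KOS is the usual short name for Klf4, Oct4 and Sox2, transcription factors that together can turn fibroblasts into induced pluripotent stem (iPS) cells. In a doxycycline-inducible system the drug lets an activator bind the promoter of the transgenes, and all cells of a secondary culture carry the same insertions. The first days of such an induction are known for the loss of fibroblast genes, a change towards an epithelial state and binding of the factors to many sites that they do not hold in ES cells, while most pluripotency genes of the endogenous genome come on later. The ERT2 part of the second label is a hormone receptor domain that answers to tamoxifen, which none of the 4 cultures described here received.

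Each array compared a sample in Cy3 with a common reference RNA in Cy5, and a level below is the log2 ratio of sample to reference for 1 probe of 60 bases. A change is the Dox+ minus the Dox- mean of these levels. Words such as before, after and went from set Dox- cultures against Dox+ cultures of the same day. No array was taken before the drug was given. The probes carry identifiers and no gene names in the sources used here, so the defining markers of fibroblasts, the 3 factors and the lists of pathway genes could not be checked, and levels cannot be ranked between probes. Of 42006 probes, 33099 were well above background in at least 1 group and were tested. Between 67.1% and 75.3% of all probes were well above background on the 4 arrays. Whether the paired samples were grown apart is not stated in the labels. The p-values measure the spread within pairs, estimated per probe over all 18 groups, and that spread may be technical. For the day 1 pairs compared it holds no difference between slides, since each pair lay on 1 slide. In a bulk culture a change in a share of the cells and a smaller change in every cell cannot be told apart.

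Among probes that could be tied to a gene, the one with the largest change was Z00041202-1, and 2 of the 4 such probes that rose at least 2-fold are shown because an exact match gives their place in the genome. The build is GRCm38.p6, and the windows and gene spans are those of RefSeq. Capitals mark the bases from a RefSeq start onwards that match the named transcript's strand, and each line reads 5′ to 3′ as on the array.
Z00041202-1, minus strand, chr6:35312995-35313054, within the span of Fam180a: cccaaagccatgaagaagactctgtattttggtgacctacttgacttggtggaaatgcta
Z00077693-1, plus strand, chr3:90654247-90654306, across a start of S100a7a: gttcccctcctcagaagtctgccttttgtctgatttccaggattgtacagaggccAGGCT
Of these, Z00041202-1 has no capitals because it lies upstream of, and antisense to, the window's own gene Gm38788.

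Within 1 day 7787 probes rose (23.5% of those tested) and 7551 fell (22.8%), by limma's moderated test on all 36 arrays at a Benjamini-Hochberg adjusted p under 0.05. Changes of at least 2-fold were fewer and leaned upwards, with 1473 probes rising (4.45%) and 716 falling (2.16%). With Feature Extraction's own ratios in place of the corrected intensities the counts were 2697 and 1434. The lean grew with size. There were 444 rises and 94 falls of 4-fold or more, 156 and 8 of 8-fold, 59 and 2 of 16-fold, and 17 and 0 of 32-fold. The median over all tested probes was -0.02 on the log2 scale, which is near 0 as the normalization sets it. The 2 arrays of a group differed with a standard deviation over probes of 0.158 in Dox- and 0.102 in Dox+, and the median standard error of a change was 0.0769. The share of probes called was 21.5% among the dimmest of 4 equal groups of probes by brightness and 61.5% in the third, so a missing call at a dim probe says little.

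Doxycycline and slide cannot be told apart on day 1, since both Dox- arrays were on 1 slide and both Dox+ arrays on another. The reference channel, which held the same RNA on both slides, differed between them with a standard deviation over probes of 0.107, against 0.610 in the sample channel. Of the 2189 probes called at 2-fold, 39 had a reference channel difference of 2-fold or more, and 2071 moved 2-fold the same way in the sample channel alone. These probes were picked for a change of the ratio, so with a steady reference most must move in the sample channel. That channel has the same overlap of slide and doxycycline, and the counts do not tell them apart. Averaged over days 1, 3 and 6, each on slides of its own, 21985 probes were called for doxycycline (66.4%). A fit on the secondary MEF arrays alone, with slide as a random block and drug effects taken as equal on all days, called 12487. The correlation between arrays of the same slide in that fit was 0.68.

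The largest rise was that of Z00074466-1. Its log2 ratios were -2.89 and -2.80 without doxycycline and 3.91 and 3.88 with it. The pairs lay far apart, and both Dox+ arrays also stood above wild MEF3 (-1.37 and -1.09), ES (-1.84 and -1.79) and iPS cells (-2.36 and -2.41). The change of 6.74 (SE 0.099, limma adjusted p = 6.92e-25) is 107-fold. Z00036124-1 had the next largest rise and ended elsewhere. Its Dox- values were -3.87 and -3.87 and its Dox+ values 2.61 and 2.64, the level of wild MEF3 cells at 2.67 and 2.73, whereas ES cells had -6.59 and -6.61. This rise of 90.2-fold (SE 0.062 on the log2 scale, adjusted p = 1.96e-28 in limma) was thus at a probe whose ES minus MEF3 difference is -9.30.

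The largest falls were smaller. Z00035949-1 went from 1.31 and 1.16 to -2.94 and -2.85, leaving the MEF3 level (2.02 and 2.17) and remaining above that of ES cells (-4.41 and -4.46). Its change was -4.13 (SE 0.075, limma adjusted p = 3.51e-23). Z00057154-1 went from 2.55 and 2.56 to -1.58 and -1.55, a change of -4.12 (SE 0.077, limma adjusted p = 5.9e-23). Before doxycycline it stood above both end states, and afterwards within 2-fold of MEF3 (-0.85 and -1.07).

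The end states were used to ask which probes marked ES cells or fibroblasts. A probe was called ES-high or MEF-high where ES and MEF3 cells differed at least 4-fold with an adjusted p under 0.05. That gave 1201 ES-high and 2507 MEF-high probes, against 29391 in neither class. Without a size limit, 33.4% of probes were called higher in ES cells and 40% higher in MEF3. These classes rest on arrays that the day 1 comparison does not use, but the ES and MEF3 arrays differ in slide and in scan day.

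**Figure D1:**
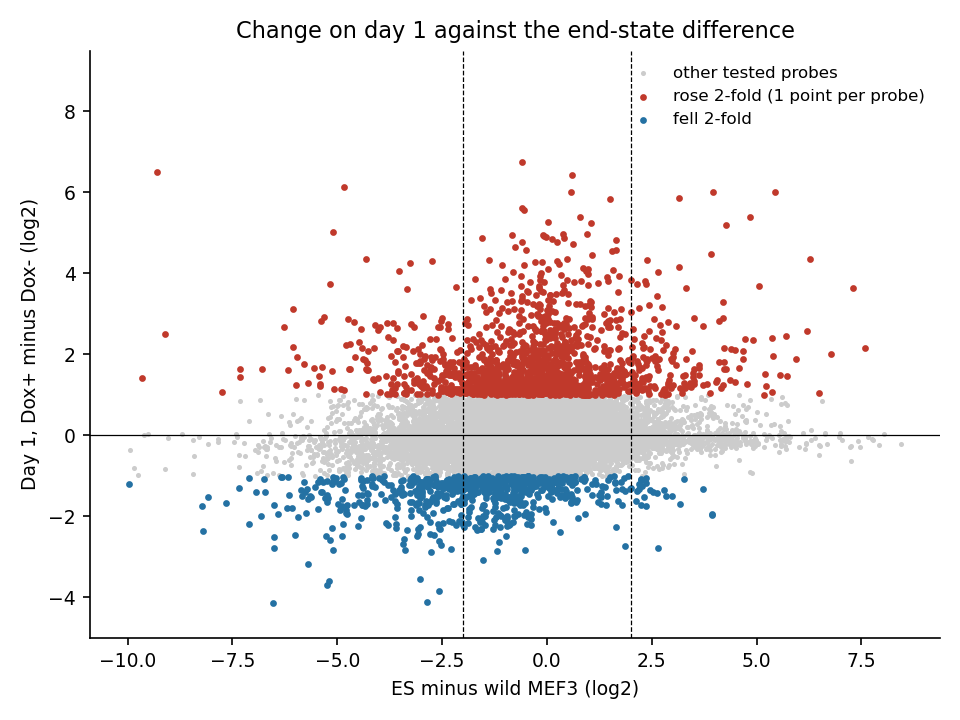
Change on day 1 (vertical axis, Dox+ minus Dox-, log2) against the difference between ES and wild MEF3 cells (horizontal axis, log2) for the 33099 probes tested, 1 point per probe. Red points rose and blue points fell at least 2-fold with an adjusted p under 0.05, and dashed lines mark the 4-fold limits of the ES-high and MEF-high classes. Of the 1473 red points 1095 lie in neither class, and of the 716 blue points 279 are MEF-high.

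A larger share of MEF-high probes than of all probes fell. Of the 2507, 1122 fell (44.8%, against 22.8% of all probes) and 694 rose (27.7%), with a median change of -0.145. At 2-fold, 279 fell (11.1%, against 2.16% of all probes) and 208 rose (8.3%, against 4.45%), so both shares were above those of all probes. For ES-high probes the share that rose was the larger: 420 of 1201 rose (35%, against 23.5%), 242 fell (20.1%), and at 2-fold 170 rose (14.2%, against 4.45%) and 25 fell (2.08%, against 2.16%). Their median change was 0.019, close to that of all probes. The 5% of ES-high probes with the highest change exceeded 1.95 on the log2 scale.

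Few probes covered much of the distance between the end states. An ES-high probe moved by a median of 0.681% of its own ES to MEF3 distance towards ES cells (quartiles -5.59% and 14.7%), and a MEF-high probe by 4.52% (quartiles -9.04% and 16.8%). More than 25% of the distance was covered, with a call, by 219 ES-high and 395 MEF-high probes, and more than 50% by 100 and 106. Movement away from ES cells by more than 25% of the distance was called at 48 ES-high and 320 MEF-high probes.

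Most probes that moved 2-fold belonged to neither class. Of the 1473 that rose, 170 were ES-high (11.5%), 208 MEF-high (14.1%) and 1095 neither (74.3%). Of the 716 that fell, 25 were ES-high (3.49%), 279 MEF-high (39%) and 412 neither (57.5%). The ES-high count moved with the processing. With Feature Extraction's own ratios 595 of 2697 rising probes and 115 of 1434 falling probes were ES-high, and with the deposited series matrix 379 of 1722 and 60 of 925.

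Each probe's level was then set against both end states. A level is called ES-like where it lies within 2-fold of ES cells and at least 2-fold from MEF3 cells, MEF-like in the reverse case, above or below both where it is at least 2-fold beyond each, near both where it is within 2-fold of each, and between where it lies at least 2-fold from each on the inner side. Distances of 2-fold also needed an adjusted p under 0.05. The comparisons with ES and MEF3 share the day 1 arrays, and probes picked for having risen are more likely to lie high, so the counts describe levels and are not tests.

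Without doxycycline the cells already differed from wild MEF3. In Dox- 22887 of the 33099 probes were near both end states, 6405 MEF-like, 1940 ES-like, 764 between, 691 above both, 405 below both and 7 unresolved. After 1 day 22581 were near both, 5974 MEF-like (18%), 2142 ES-like (6.47%), 869 between, 1112 above both (3.36%), 409 below both (1.24%) and 12 unresolved. The class above both grew most, and 273 probes were in it before and after. Among ES-high probes the ES-like count went from 96 to 145 and the MEF-like count from 980 to 861. Among MEF-high probes the MEF-like count went from 1281 to 1192 and the ES-like count from 407 to 457.

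**Figure D2:**
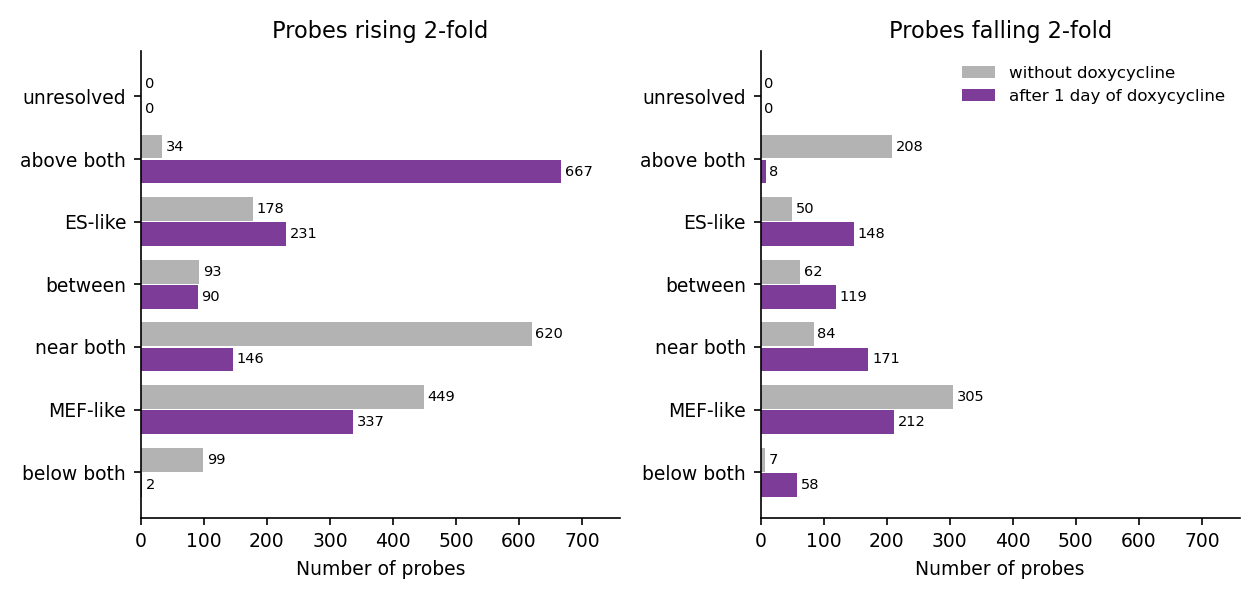
Number of probes (horizontal axis) in each level class without doxycycline (grey) and after 1 day with it (purple), for the 1473 probes that rose (left) and the 716 that fell (right) at least 2-fold. Above both grew from 34 to 667 among rising probes and shrank from 208 to 8 among falling probes.

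Rising probes ended above both end states more often than at either of them. Of the 1473, 667 were above both after 1 day (34 before), 337 MEF-like, 231 ES-like, 146 near both, 90 between and 2 below both. Feature Extraction's own ratios gave 1067 above both. Of the 667, 414 had been near both end states, 153 MEF-like, 35 ES-like, 34 above both, 18 below both and 13 between. The median distance to the nearer end state was 1.69 on the log2 scale. At least 4-fold above both were 236 of them, 8-fold 82 and 16-fold 29. By end class, 595 were neither, 60 MEF-high and 12 ES-high. At 76 of the 667 neither ES nor MEF3 cells were well above background on any array. Relative to other cells of the series, which again are set against the same Dox+ arrays, 666 were 2-fold above iPS cells (16.2% of all probes were). Above untreated Zscan4ERT2 MEF2 cells were 642 (5.89% of all). The 667 were chosen as above other pluripotent cells and other MEFs on these arrays, so high counts follow from the choice and are not separate support.

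**Figure D3:**
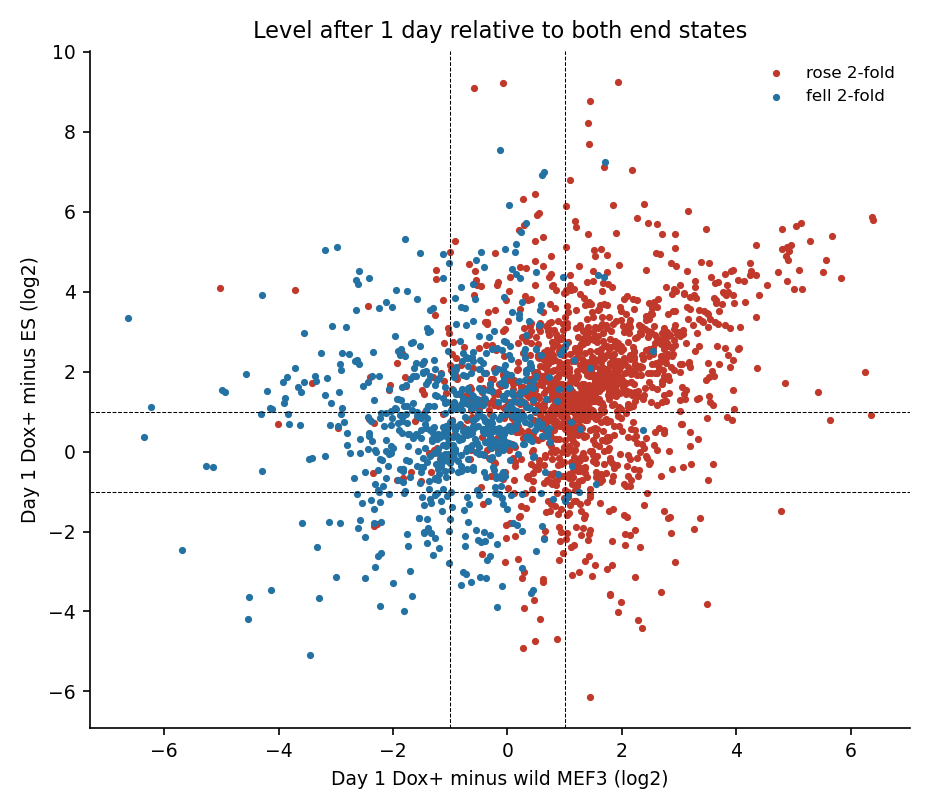
Level after 1 day of doxycycline relative to wild MEF3 cells (horizontal axis, log2) and to ES cells (vertical axis, log2) for the probes that rose (red) or fell (blue) at least 2-fold. Dashed lines mark 2-fold, and the upper right corner holds the 667 rising probes above both end states.

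Z00022190-1 had the largest rise among probes that had been near both end states. It went from -2.25 and -2.21 to 4.18 and 4.23, while MEF3 had -2.17 and -2.19 and ES cells -1.75 and -1.42. Z00033785-1 rose from 0.06 and -0.12 to 5.20 and 5.30, with MEF3 at -0.04 and -0.02 and ES cells at -0.06 and 0.03. In both, the end states and the untreated cells lay close together and the Dox+ arrays far above. Z00028463-1 rose by 5.61 on day 1 and was higher by 1.55 on day 6.

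Of the 18 probes that crossed from below both to above both, Z00074466-1 was the largest. Z00026347-1 went from -2.54 and -2.47 to 3.05 and 3.08, against -0.29 and -0.17 in MEF3 and -0.79 and -0.74 in ES cells. Z00023705-1, which is ES-high, went from -2.22 and -2.14 to 3.70 and 3.68 and passed the ES level of 2.00 and 1.97. The ES-high probe with the largest rise of all, Z00026928-1, also passed ES cells. It went from -2.74 and -2.60 to 3.33 and 3.37, with ES cells at 2.04 and 1.70. That rise of 6.02 (SE 0.123, limma adjusted p = 3.38e-22) was 1.48 beyond the ES mean.

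A smaller group of rising probes went from the MEF3 level to the ES level in 1 day: 128 probes, 54 of them ES-high, with a median change of 1.75. Z00070078-1 went from -3.82 and -3.83 to 2.22 and 2.15, against -4.22 and -4.11 in MEF3 and 1.27 and 1.26 in ES cells. Z00075132-1 went from -3.57 and -3.56 to 1.80 and 1.85, against 1.05 and 1.03 in ES cells. Both probes ended somewhat above ES cells by less than 2-fold. Z00074674-1 stopped just short, at 0.38 and 0.46 against 0.70 and 0.79. Z00036591-1 is the largest rise that ended between, at 0.23 and 0.20, from -4.30 and -3.99, with ES cells at 1.70 and 1.74.

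In the other direction, 94 rising probes went from the ES level to the MEF3 level, 30 of them MEF-high, with a median change of 1.49. Z00022433-1 went from -0.92 and -0.98 to 2.01 and 2.00, against 1.13 and 1.38 in MEF3 and -1.79 and -1.60 in ES cells. Z00047519-1 went from -2.23 and -2.13 to 0.74 and 0.55, against 0.37 and 0.33 in MEF3. The untreated cells had the ES level at these probes, and the doxycycline cultures that of wild fibroblasts. In all, 114 MEF-high probes rose 2-fold to a MEF-like level and 60 to above both.

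Falling probes moved mostly to levels between the end states or within 2-fold of at least 1 of them. Of the 716, 212 were MEF-like after 1 day, 171 near both, 148 ES-like, 119 between, 58 below both and 8 above both. Before doxycycline 208 of them had been above both, of which 102 became MEF-like and 85 near both. Z00020142-1 went from 1.96 and 2.18 to -1.78 and -1.75, against -1.21 and -1.33 in MEF3 cells. Z00029853-1 went from 5.03 and 4.72 to 1.26 and 1.37, against 1.91 and 2.13 in MEF3. Z00075223-1 went from 4.48 and 4.52 to 1.39 and 1.46, a level near both MEF3 (2.23 and 2.29) and ES cells (0.85 and 0.63).

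From the MEF3 level, 89 falling probes reached the ES level, 40 of them MEF-high, with a median change of -1.5. Z00074893-1 went from 1.05 and 1.12 to -2.65 and -2.55, against 1.73 and 1.69 in MEF3 and -3.52 and -3.54 in ES cells. Z00064439-1 went from 0.02 and -0.16 to -2.85 and -2.90, and its ES values were -2.80 and -2.93. Both left the fibroblast level within 1 day. A further 72 fell from the MEF3 level to between, and 72 remained MEF-like.

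Below both end states lay 58 of the falling probes, 28 of which had been near both. Z00048889-1 had the largest fall among them, from 3.32 and 2.87 to 0.28 and 0.21, against 2.58 and 2.69 in MEF3 and 1.47 and 1.44 in ES cells. Z00009499-1 went from 0.70 and 0.79 to -1.59 and -1.71, against 0.61 and 0.53 in MEF3 and 0.88 and 0.90 in ES cells. Of the 58, 14 were at least 4-fold and 6 at least 8-fold below both. The count was 190 with Feature Extraction's own ratios and 125 with the series matrix.

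**Figure D4:**
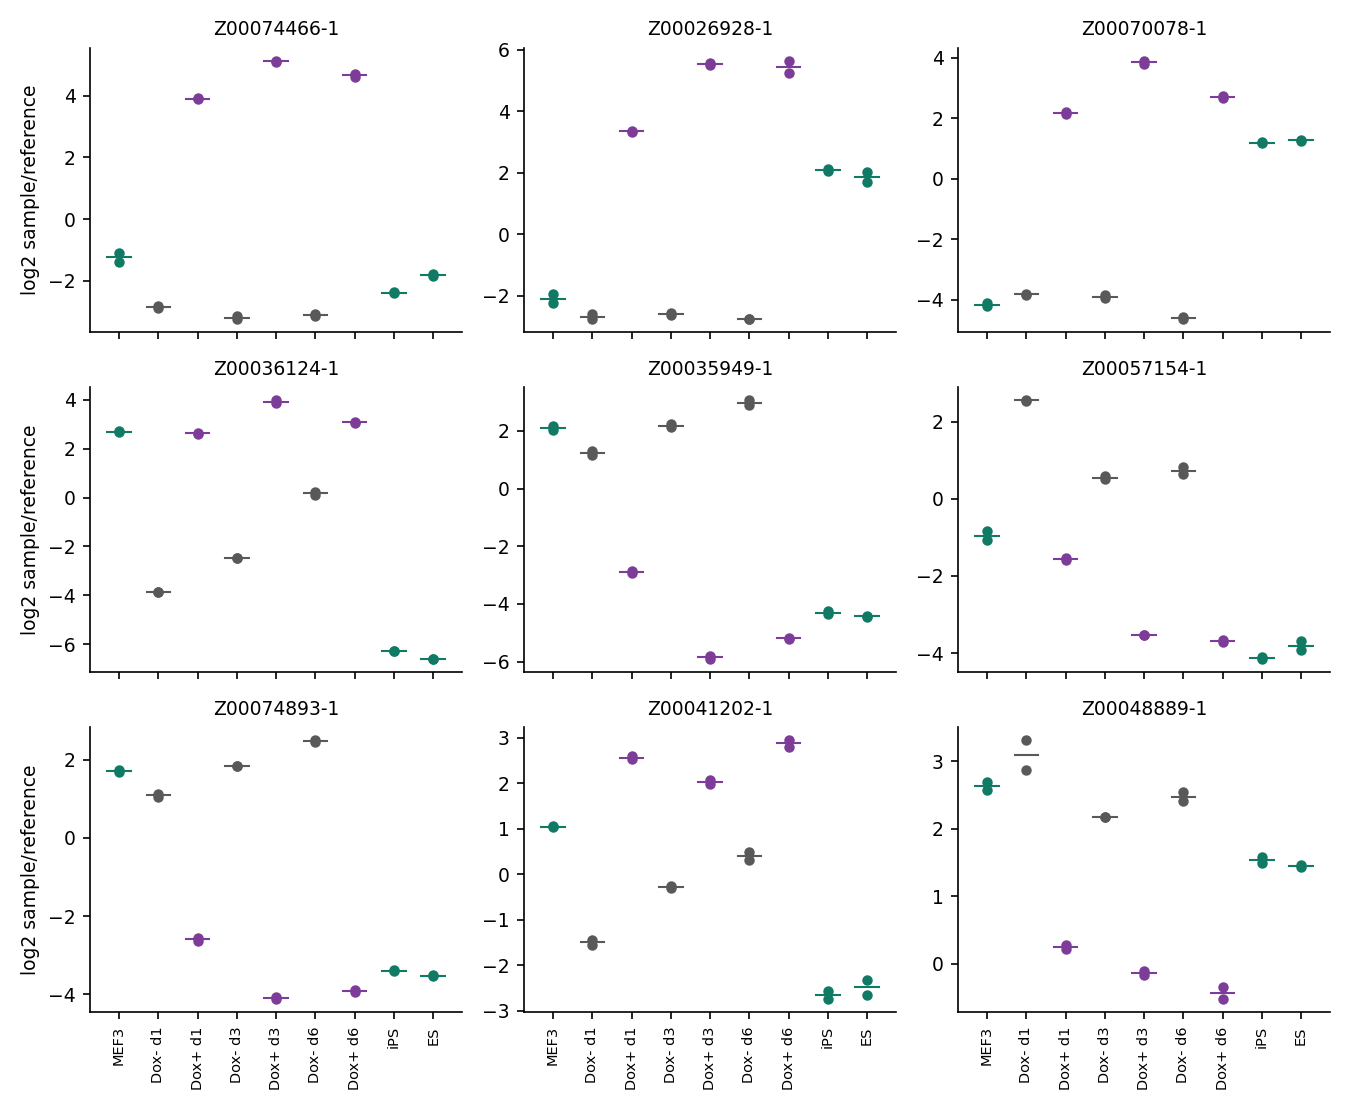
Log2 ratio of sample to reference (vertical axis) on every array of the named groups (horizontal axis, 2 arrays each, lines at the mean) for 9 probes. Purple points had doxycycline, grey points did not, and green points are MEF3, iPS and ES cells. On day 1 the Dox+ points of Z00074466-1 and Z00026928-1 lie above both end states, those of Z00036124-1 at the MEF3 level and those of Z00048889-1 below both.

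Some ES-high probes fell. Z00011249-1, the largest of the 25, went from -0.39 and -0.37, close to ES cells (-0.01 and -0.05), to -3.14 and -3.19, below MEF3 cells (-2.72 and -2.64) by less than 2-fold. Its change was -2.78 (SE 0.080, limma adjusted p = 2.72e-19). Of the 25, 19 ended at a MEF-like level.

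Detection gives a second view of the dim probes. With doxycycline 1011 probes (3.05% of those tested) were well above background on both Dox+ arrays and on neither Dox- array, and 94 (0.284%) the reverse. The change was called as a rise for 539 of the 1011 and as a fall for 70 of the 94. Calls at 2-fold, in either direction, were 136 of the 1011 and 6 of the 94. The Dox+ arrays detected 72.5% and 75.3% of all probes, and the Dox- arrays 72.1% and 67.1%. How much of the imbalance between the 1011 and the 94 that makes up was not tested. Of the 1011, 318 (31.5%) were above background in ES and not in MEF3 cells, 32 (3.17%) in MEF3 and not in ES cells, and 420 on no array of either. Among the 3031 tested probes above background on neither Dox- array, which include the 1011, the first of these shares was 37.2% and the second 3.4%. The 1011 pass the background filter through Dox+ itself, and the rest of the 3031 only through other groups, which may be ES cells. The shares of the 3031, here and below, therefore depend on the filter, and no lean of the 1011 can be read from them. The MEF3 arrays detected fewer probes in all (54.9% and 58.9%) than the ES arrays (71.8% and 67.6%). Beside tamoxifen on the same day 514 of the 1011 were above background on both doxycycline arrays. On both of these and on neither array without doxycycline were 429 (42.4%), against 14.4% of the 3031. Those doxycycline arrays detected 67.4% and 69.2% of all probes, and those without it 70.1% and 71.6%. On day 3 757 were above background on both doxycycline arrays and 580 (57.4%, against 39.3% of the 3031) on these and on neither array without it. On day 6 these counts were 721 and 401 (39.7%, against 32.8%). On day 6 257 were above background on both arrays without it.

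Arrays that the day 1 choice did not use showed most of the same changes. They share with it the spread estimated per probe, and probes picked for a large change tend to have a smaller one on other arrays. Beside tamoxifen, on 4 other arrays of the same 2 slides, all 1473 rising probes rose (23.1% of all probes tested did). Of the 716 falling probes 710 fell there (22% of all did). Slide and doxycycline cannot be told apart on these arrays either, so a difference between the slides could recur in these counts. The difference between the changes with and without tamoxifen was called at 37 probes (0.112%), at 1 on backgrounds as given, and at 16 to 107 with 1 day 1 array left out. With doxycycline on day 3, against untreated cells of that day, 1399 of the 1473 rose (31% of all) and 667 of the 716 fell (27%). On day 6 1294 rose (28.9% of all) and 641 fell (25.5%), while 80 of the rising probes fell and 33 of the falling probes rose.

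The differences from untreated cells of the same day then took different courses by class. The 170 ES-high probes that rose 2-fold had median differences of 1.74, 2.81 and 2.60 in the order of the days, and the difference was larger on day 6 than on day 1, by the test of the 2 differences, at 109 and smaller at 37. The 208 MEF-high probes that rose had medians of 1.62, 1.53 and 1.04, with a larger difference on day 6 at 49 and a smaller one at 128. The 667 above both had 1.92, 2.35 and 2.05, larger at 251 and smaller at 260. Over all tested probes the day 6 difference was above that of day 1 at 21.7% and below it at 19.8%, in all 41.5%, and days 3 and 1 differed at 39.3%. Of the MEF-high probes that fell, medians were -1.45, -1.91 and -1.66. The untreated cells moved too. Between their days 1 and 6, 656 of the 1473 rising probes were called higher on day 6 (27.6% of all probes) and 360 lower (27.6%). At 2-fold, 220 were higher (4.97% of all) and 45 lower (2.51%). That comparison uses the same Dox- arrays by which the probes were picked. How much of each class's course it makes up was not tested.

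**Figure D5:**
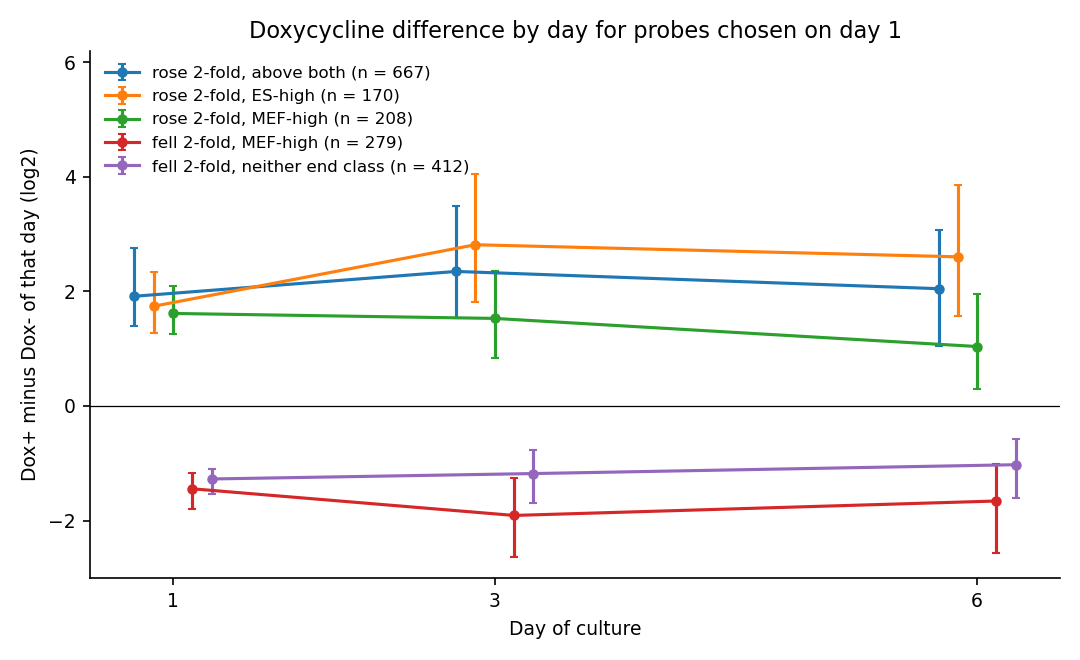
Median and quartiles (points and bars) over probes of the difference between cultures with and without doxycycline of the same day (vertical axis, log2) on days 1, 3 and 6 (horizontal axis), for 5 sets chosen by their day 1 change. The ES-high set rises to a median of 2.81 on day 3, and the MEF-high set that rose declines to 1.04 on day 6.

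Single probes show both courses. Z00036124-1, at the MEF3 level after 1 day, had a difference of 6.39 on day 3 and 2.92 on day 6. The difference between days 6 and 1 was -3.58 (limma adjusted p = 7.18e-20), and the untreated cultures stood 4.04 higher on day 6 than on day 1 at this probe. Z00035949-1 went the other way, with differences of -4.13, -8.03 and -8.16. Z00076827-1, 1 of the 2 rising probes still below both, had 1.21, 0.08 and -1.80.

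A few probes could be tied to genes. Their 60 bases, or at least the first 30, matched a window from 250 bases before to 50 after a RefSeq start for 382 probes, of which 293 were tested. Of these 40 rose, 62 fell, 4 rose 2-fold and 0 fell 2-fold. Their shares called lie below those of all probes, and probes at starts are not a sample of the array. The genes named next were picked after their values were seen, by size of change and by having a known role. A match tells where the bases lie and not which transcript was measured.

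The largest change was in Z00041202-1, shown above, within Fam180a and antisense to the window of Gm38788. It went from -1.44 and -1.54 to 2.54 and 2.60, above MEF3 (1.03 and 1.07). ES cells were not well above background at it (-2.64 and -2.32). The rise was 4.06 (SE 0.110, limma adjusted p = 7.71e-20), and the difference between cultures of the same day was 2.31 on day 3 and 2.48 on day 6. At this probe the untreated cultures stood 1.90 higher on day 6 than on day 1. The day 6 doxycycline arrays read 2.96 and 2.80. Z00077693-1, across a start of S100a7a, an S100 calcium binding protein gene, went from 0.86 and 0.78 to 1.84 and 1.99, and its difference was -0.02 on day 3 (limma adjusted p = 0.883) and -0.53 on day 6 (limma adjusted p = 2.33e-05). Z00029022-1, antisense upstream of Cmtm7, went from -0.29 and -0.27 to 1.38 and 1.51, above both end states.

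Smaller changes at other placed probes went both ways. Z00064434-1, at the start of Acta2, the smooth muscle actin of contractile fibroblasts, fell by 0.40 on the log2 scale (limma adjusted p = 0.00503). On local backgrounds as given its adjusted p was 0.0696 in limma. Z00070363-1, within Hoxb2, a homeobox gene of anterior-posterior patterning, is MEF-high and fell by 0.70 (adjusted p = 7.25e-08 in limma). Z00024971-1, within the spans of both C1qtnf3 and Gm34315 and antisense upstream of a start of Gm52174, is MEF-high and fell by 0.82. Of these, C1qtnf3 encodes a secreted protein of the C1q and TNF related family. Z00041441-1, across a start of Ntng1, the membrane-bound netrin G1, is MEF-high and rose by 0.85 (limma adjusted p = 1.37e-08). Of ES-high probes, Z00063593-1, at the start of the predicted gene Gm3194, fell by 0.80. Z00022927-1, within the span of Arhgdig and upstream of a start of Pdia2, fell by 0.54.

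Probes that share sequence gave like values. For 22 pairs of tested probes with the same 60 bases the median difference between their changes was 0.0436 on the log2 scale, and for 595 pairs that share 30 to 59 bases it was 0.0457. Z00025092-1 and Z00056917-1, which share 43 bases, rose by 3.74 and 3.81. Z00013525-1 and Z00048237-1, which share 31, fell by 1.97 and 1.95. Where either probe of an overlapping pair was called at 2-fold, 53 of 54 pairs were called the same way (46.3% of all probes tested were called in either direction). Such pairs read shared bases on the same arrays, so likeness follows from the design and a slide difference would recur in them. Pairs of unrelated probes were not compared. In base composition the moving probes differed little from the rest, with a mean GC content of 43.4% in rising, 42.9% in falling and 45% in all tested probes, and standard deviations between 7.17% and 8.54%. The polyadenylation signal AATAAA, searched on the probe's strand, was in 9.57% of rising, 9.36% of falling and 7.31% of all tested probes.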

How the data were processed

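RNA of 36 samples in 18 groups of 2 was measured on 2-colour Agilent arrays. The authors deposited scanner tables of spot intensity and log10 ratios, both from Agilent Feature Extraction (version 9.5.1.1 per the file headers), and a series matrix whose deposited values track log10 of the sample signal (correlation 0.989 to 0.996, column medians 2.37 to 2.46). How that matrix was scaled or centred is not given in the sources used here.

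Mean and local background intensities were used. Backgrounds marked as outliers (0.308% to 4.77% of an array) were replaced by the array's median, because the correction had failed on 2 arrays without this. Normexp with an offset of 50, loess within arrays, averaging of a probe's spots, and the filter on background (8907 of 42006 probes removed) followed. Limma 3.58.1 in R 4.3.3 fitted 1 mean per group to all 36 arrays (18 residual and 5.05 prior degrees of freedom), with two-sided tests and p-values adjusted by Benjamini-Hochberg over the probes of a comparison. A fold in log2 units is shrunk at dim probes by the offset. The fit was also run on simulated data with independent noise on each array and no slide effect. That run cannot show how a difference between slides would act on the calls. Arrays lay on 11 slides scanned on 5 days.

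The classes, lists and named probes were chosen with earlier results of these data known. Planned gene lists and naming by symbol could not be applied, because the files pair no names with probes. In their place the text names the 2 largest rises and falls, the largest rise and fall of each level class and of the ES-high probes, the largest changes between classes, and probes placed at RefSeq starts, among probes called with groups that do not overlap. That rule was set after the files were seen.

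The alternatives were other background corrections, Feature Extraction's ratios, the series matrix (25030 probes, of which 20183 were tested), filters, other sets of arrays, other limits for the classes, MEF2 in place of MEF3, replicate and slide blocks, the sample channel alone, and each replicate left out.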

Additional observations from a re-analysis of the deposited data

Results flagged for a closer look

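The effect of doxycycline differed between days by the test of the difference in limma. It differed between days 3 and 1 at 12992 probes (39.3% of those tested), higher at 7273 and lower at 5719. It differed between days 6 and 1 at 13738 probes, higher at 7184 and lower at 6554. The cultures of each day lay on other slides, so day and slide cannot be told apart in these counts. On day 1 the effect with tamoxifen differed from that without it at 37 probes, higher at 30 and lower at 7. That count was 1 on backgrounds as given and 16 to 107 with 1 day 1 array left out, so it is not stable. One of the 2 tamoxifen samples without doxycycline has a protocol text that names no tamoxifen, and its part in the 37 was not tested.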

How the results depend on the processing

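For the 38 probes the text names, 554 of 555 changes under 15 alternative settings kept direction and call. The exception was the probe of Acta2 on backgrounds as given. Feature Extraction's ratios moved most counts: 2697 probes rose and 1434 fell 2-fold, 595 ES-high and 421 MEF-high probes rose 2-fold, 511 MEF-high and 115 ES-high fell 2-fold, 1067 rose to above both, 190 fell to below both, and 713 and 934 moved to ES-like and MEF-like levels (379 and 549 as reported). Of the 2189 probes called at 2-fold, 96.8% were called the same way there, which is 51.3% of its calls. The series matrix gave 379 ES-high rising, 60 ES-high falling and 125 below both. The cause of these shifts was not tested. A 2-fold limit for the end classes gave 304 ES-high and 427 MEF-high rising and 442 MEF-high and 54 ES-high falling. A 4-fold margin gave 236 above and 14 below both. For doxycycline over all days the main fit gave 21985 calls. A fit on the secondary MEF arrays alone, with slide as a random block and drug effects taken as equal on all days, gave 12487. The fits differ in all of these respects, and the part of the slide block was not tested by itself. The difference between the effects with and without tamoxifen was called at 1 probe on backgrounds as given, and at 16 to 107 with 1 day 1 array left out: 107 and 18 without Dox- replicates 1 and 2, and 16 without Dox+ replicate 1. Leaving out 1 of the 4 arrays gave 1438 to 1520 rising and 712 to 755 falling probes at 2-fold, and 656 to 686 above both.

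With the replicate number as a block 7776 probes rose and 7548 fell, and with the numbers of Dox+ crossed, an alternative added after seeing the data, 7798 and 7577. Replicate numbers match slide positions, and the within-group differences of Dox- and Dox+ had a correlation of -0.294 over probes. No call of the 38 probes changed under either block. Also added after seeing the data were the sample channel alone (1464 rising and 795 falling at 2-fold) and a fit without the 2 arrays with failed backgrounds (1473 and 718). The number of arrays limits precision, and 134 rising 2-fold probes were not well above background on either Dox- array, so their size is uncertain.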
